A study of Homo sapiens with 9 samples.

Results

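Notch signaling genes were examined in the human hepatocellular carcinoma (HCC) cell line MHCC97L and in 2 drug-resistant lines derived from it. The genes were 10 of the 20030 in the deposited tables, taken by gene symbol: the ligands DLL4, JAG1 and JAG2, the receptors NOTCH1, NOTCH2 and NOTCH3, the glycosyltransferase LFNG, and the target genes HES1, HEY1 and NRARP. MHCC97L, the parental line, carried no drug treatment. MHCC97L-Src had been grown in rising amounts of saracatinib, an inhibitor of Src family kinases, until it was stably resistant to 4 μmol/L, and MHCC97L-Oxa was stably resistant to 2 μmol/L oxaliplatin, a platinum drug that damages DNA. Poly(A)-selected RNA was sequenced in 3 libraries of each line, 9 in all. Each resistant line is a single selected line, so selection by a drug cannot be told apart from other differences between the lines. The labels do not say that the 3 libraries of a line came from separate cultures, so all p-values measure only the spread between libraries.

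Notch receptors sit in the plasma membrane and are activated by ligands of the Delta-like and Jagged families on a neighbouring cell. Ligand binding lets ADAM10 and then gamma-secretase cleave the receptor, and the released intracellular part joins the DNA-binding protein RBPJ and a Mastermind coactivator to switch on target genes. In liver the pathway is known for directing hepatoblasts toward bile duct cells, and mutation of JAG1 or NOTCH2 causes Alagille syndrome. In blood vessels DLL4 restrains sprouting.

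Libraries held 16970486 to 18209213 counts on genes in total, and a level of 3 counts in a library was taken as the smallest detectable amount, which covers counting error only. CPM are counts scaled to library size with TMM normalisation. Gene levels relative to the other libraries followed GC content, most strongly in MHCC97L replicate 1. There they fell with it (Spearman's rho = -0.786 across genes, which are not independent replicates), against -0.256 to 0.703 in the other 8 libraries. In MHCC97L-Src replicates 1 and 2 they rose with it (rho = 0.545 and 0.703). GC content and length took up 66.7% of the variance of relative levels in MHCC97L replicate 1 and 48.2% in MHCC97L-Src replicate 2. These levels are relative to the mean of all 9 libraries, so they do not show what link to GC content remains without MHCC97L replicate 1. Values with offsets for GC content and gene length, and without MHCC97L replicate 1, are therefore given for the tested Notch genes. Of 9 markers of hepatocytes and HCC, ALB, AFP, APOB and TTR were at 0 in all 9 libraries. The sum of these 9 markers was 0.258 to 0.583 CPM in the parental line. It was higher without overlap in MHCC97L-Src (1.1 to 1.72 CPM) and in MHCC97L-Oxa (1.28 to 2.16 CPM). The 5 epithelial markers, among them KRT8, summed to 3070 to 5980, 4520 to 7060 and 2900 to 3180 CPM in the same order. The summed level of 6 fibroblast markers was 145 to 207 CPM in the parental line, 93.6 to 99.4 CPM in MHCC97L-Src and 167 to 181 CPM in MHCC97L-Oxa, and that of 5 immune cell markers was 46.0 to 81.1, 75.2 to 107 and 147 to 151 CPM in the same order, with PTPRC and CD3E at 0 in all 9 libraries. MHCC97L-Src thus lay below MHCC97L in the fibroblast sum, and MHCC97L-Oxa above it in the immune sum, without overlap, and the part of such cells in the results was not tested.

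Per transcript length, the order of the 10 genes differed between lines. In MHCC97L, NOTCH2 had the highest mean level at 17.1 FPKM (fragments scaled to transcript length and library size), followed by HEY1 at 12.9 FPKM, and the libraries of these neighbours overlapped. LFNG, NRARP and NOTCH1 followed at 7.36, 7.17 and 6.35 FPKM and also overlapped one another in turn. JAG2 (1.88 FPKM) and JAG1 (1.67 FPKM) overlapped too, and HES1 (0.78 FPKM), DLL4 (0.254 FPKM) and NOTCH3 (0.0191 FPKM) stood below them without overlap. In MHCC97L-Src the order began with HEY1 (24.5 FPKM), NRARP (15.5 FPKM) and NOTCH2 (11.4 FPKM), and in MHCC97L-Oxa with HEY1 (25.3 FPKM), NOTCH2 (14.0 FPKM) and NRARP (9.71 FPKM), each of these clear of its neighbour. DLL4 was ninth of 10 in every line, above only NOTCH3. The order takes no account of GC content, which was 67.3% for NRARP and 49.4% for NOTCH2.

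**Figure D1:**
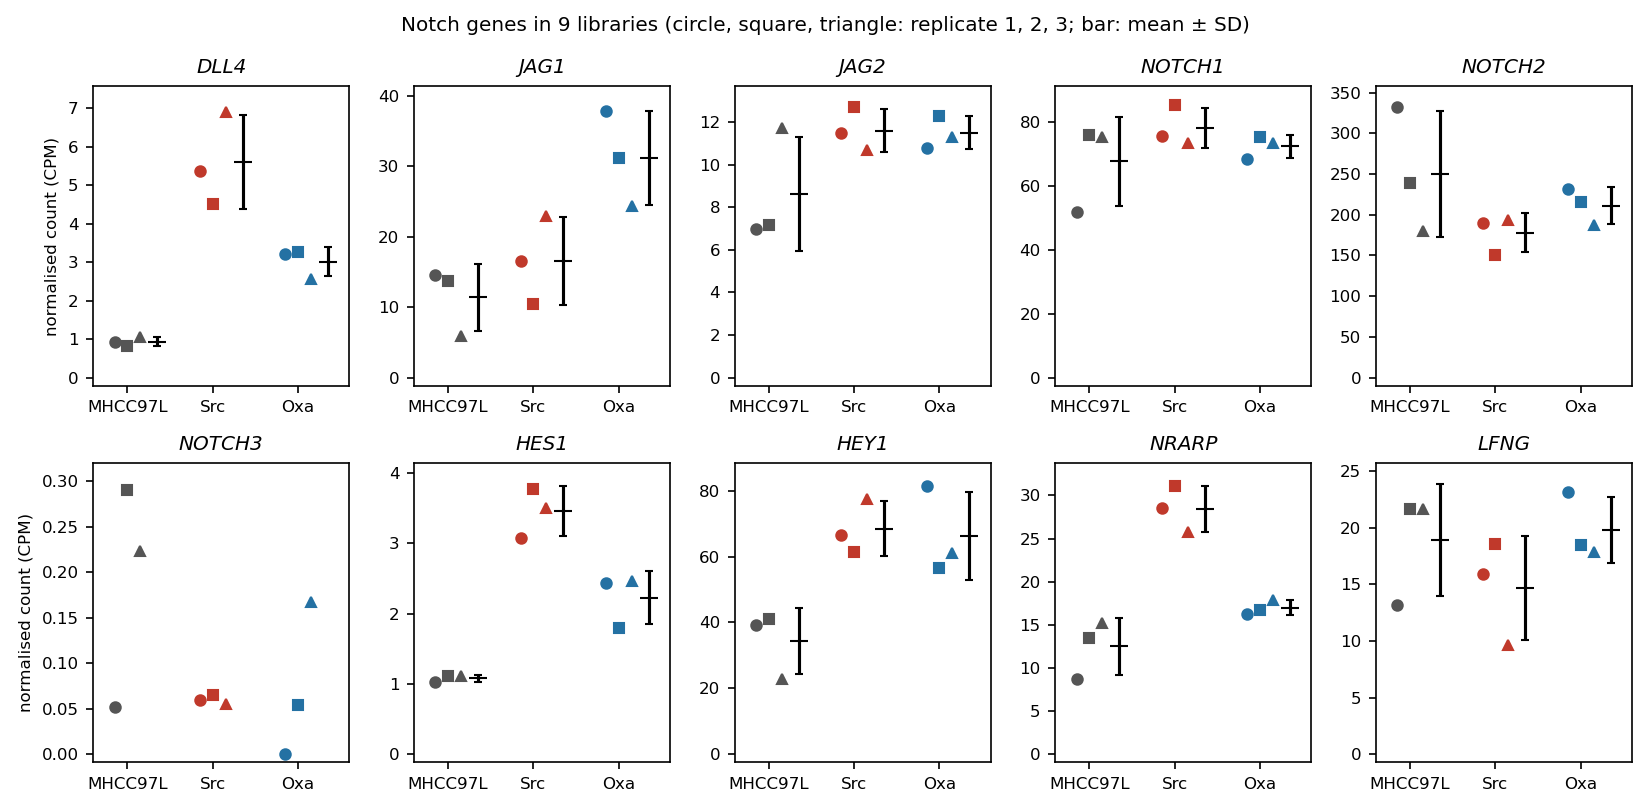
Normalised counts (CPM, linear axes) of the 10 Notch genes in each library of MHCC97L, MHCC97L-Src and MHCC97L-Oxa, with symbols for replicates 1, 2 and 3 and, except for NOTCH3, the mean ± SD of 3 libraries beside them. The DLL4, HES1, HEY1 and NRARP libraries of both resistant lines lie above those of MHCC97L, NOTCH1 and NOTCH2 overlap, and NOTCH3 stays under 0.3 CPM.

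Comparison of MHCC97L-Src with MHCC97L addressed which Notch genes differed in the saracatinib-resistant line. Of the 10 genes, 9 passed the filter on low counts and 1, DLL4, rose at an adjusted p under 0.05 (edgeR), a threshold that 2.13% of all 12037 tested genes passed, 1.43% with higher values. The target genes HES1, HEY1 and NRARP had higher values in all 3 MHCC97L-Src libraries than in any MHCC97L library. They did not pass the adjusted test in edgeR. With DLL4, 4 of 9 genes had libraries that were higher without overlap, a pattern that 17.5% of all tested genes showed. In DESeq2 these 4 genes passed the adjusted threshold (HES1, HEY1 and NRARP at DESeq2 adjusted p = 0.0115, 0.0179 and 0.00704), against 17.6% of all tested genes. At an unadjusted p under 0.05 by edgeR, 4 of 9 passed against 29.5%. JAG1, JAG2, NOTCH1, NOTCH2 and LFNG overlapped between the lines. Comparison of MHCC97L-Oxa with MHCC97L, which shares the same 3 MHCC97L libraries, gave 0 of 9 genes at the adjusted threshold in edgeR against 0.953% of 12064 tested genes, 4 of 9 at an unadjusted p under 0.05 against 22.4%, and 3 of 9 (DLL4, JAG1 and HEY1) in DESeq2 against 7.42%. In that line 5 of 9 genes (DLL4, JAG1, HES1, HEY1 and NRARP) were higher without overlap, against 18.2% of all tested genes.

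Among the ligands, DLL4 showed the widest difference. DLL4, a Delta-like ligand, lies on the plus strand at chr15:40929333-40939073 (GRCh38, GENCODE). It had 18, 14 and 19 counts in the libraries of the parental line, 91, 69 and 126 counts in those of MHCC97L-Src and 58, 60 and 46 counts in those of MHCC97L-Oxa. The 3 lines did not overlap, with MHCC97L lowest, MHCC97L-Oxa between and MHCC97L-Src highest. As normalised counts the means were 0.934 ± 0.121 CPM in the parental line, 5.6 ± 1.22 CPM in MHCC97L-Src and 3.01 ± 0.383 CPM in MHCC97L-Oxa (SD, n = 3 each). In bulk RNA a change in the number of cells that express a gene cannot be told apart from a change in the RNA per cell.

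In MHCC97L-Src the fitted log2 fold change of DLL4 by edgeR was 2.57 (SE 0.45), or 5.96-fold, with an adjusted p of 0.0261. It was 2.26 with GC and length offsets (edgeR adjusted p = 0.0111) and 2.61 without MHCC97L replicate 1 (edgeR adjusted p = 0.014). The call was lost, at edgeR log2 fold changes of 2.40 to 2.75, without MHCC97L replicate 3 (adjusted p = 0.123) and without MHCC97L-Src replicate 1, 2 or 3 (adjusted p = 0.11, 0.086 and 0.134). It was also lost with offsets and a term for replicate number together (2.24, edgeR adjusted p = 0.05). For MHCC97L-Oxa the log2 fold change of DLL4 was 1.68 (SE 0.38, edgeR adjusted p = 0.0915). That difference passed the threshold with GC and length offsets (1.48, edgeR adjusted p = 0.0205) and without MHCC97L replicate 1 (1.77, edgeR adjusted p = 0.0182). It passed in 2 of 6 fits that each left out 1 library, and the edgeR adjusted p reached 0.462. Between the resistant lines DLL4 was higher in MHCC97L-Src by 0.90 (SE 0.26) on the log2 scale, which did not pass the test (edgeR adjusted p = 0.0879).

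Endothelial cells are a known source of DLL4, so their markers were read in the same libraries. Of 10 endothelial markers, KDR, FLT1, CLDN5 and EMCN were at 0 in all 9 libraries and 7 never exceeded 3 counts. The summed level was 2.23 to 2.74 CPM in the parental line, 12.2 to 15.1 CPM in MHCC97L-Src and 1.44 to 1.84 CPM in MHCC97L-Oxa. Most of the MHCC97L-Src sum came from CDH5, which encodes VE-cadherin, with 188, 196 and 236 counts against 17, 28 and 22 in MHCC97L. The part of such cells in the DLL4 difference was not tested.

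The 250 bases upstream of the RefSeq start of DLL4 are shown because DLL4 was the member that rose in MHCC97L-Src (chr15:40929090-40929339, plus strand, GRCh38.p14). They hold no TGGGAA, the core letters of the RBPJ site, on either strand, a word found in 21.1% of 27305 RefSeq promoter windows of this length. They hold 1 match to CACGNG, a form of the site that HES and HEY proteins bind, found in 26.5% of windows. The match is a description of letters, not of a bound site.

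DLL4: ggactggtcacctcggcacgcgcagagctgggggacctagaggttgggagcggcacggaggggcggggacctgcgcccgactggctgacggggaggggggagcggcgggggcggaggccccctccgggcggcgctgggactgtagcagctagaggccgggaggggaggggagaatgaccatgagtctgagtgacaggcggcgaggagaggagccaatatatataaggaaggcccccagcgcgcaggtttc

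JAG1, a Jagged ligand on the minus strand at chr20:10637684-10673999 (GRCh38, GENCODE), had its highest values in MHCC97L-Oxa. It had 14.6, 13.7 and 5.9 CPM in the libraries of the parental line, 16.6, 10.4 and 22.9 CPM in those of MHCC97L-Src and 37.8, 31.2 and 24.4 CPM in those of MHCC97L-Oxa. All MHCC97L-Oxa libraries lay above those of the other lines, which overlapped. The edgeR log2 fold change in MHCC97L-Oxa was 1.45 (SE 0.41), or 2.73-fold, with an adjusted p of 0.157, so it missed the threshold. It passed with GC and length offsets (1.68, edgeR adjusted p = 0.0148) and without MHCC97L replicate 1 (1.76, edgeR adjusted p = 0.0277). Of 6 fits that each left out 1 library, 2 passed. Their log2 fold changes ran from 1.14 to 1.76, and the edgeR adjusted p reached 0.474. In MHCC97L-Src the log2 fold change was 0.54 (SE 0.48, edgeR adjusted p = 0.46), with values of 0.79 with offsets and 0.80 without MHCC97L replicate 1 that did not pass either (edgeR adjusted p = 0.169 and 0.34). Between the resistant lines the log2 difference was -0.90 (SE 0.28, edgeR adjusted p = 0.102), and it passed the threshold with offsets (-0.88, edgeR adjusted p = 0.0271). Genes on the other strand overlap JAG1 and NOTCH1, and the sources used here do not say whether counting used strand.

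JAG2, the other Jagged ligand, lies on the minus strand at chr14:105140981-105168824 (GRCh38, GENCODE). It had 6.96, 7.17 and 11.7 CPM in the libraries of the parental line, 11.5, 12.7 and 10.7 CPM in those of MHCC97L-Src and 10.8, 12.3 and 11.3 CPM in those of MHCC97L-Oxa. The third MHCC97L library lay within the range of the resistant lines, and the log2 fold changes of 0.44 (SE 0.40) and 0.42 (SE 0.36) did not pass the test (edgeR adjusted p = 0.469 and 0.476). They were 0.10 and 0.22 with GC and length offsets, and 0.35 and 0.38 without MHCC97L replicate 1.

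The makeup of the ligand pool differed between lines on the FPKM scale, which takes account of transcript length but not of GC content. The GC content was 59.7% for DLL4, 49.6% for JAG1 and 64.3% for JAG2, and its part in the shares and ratios was not tested. DLL4 made up 6.67% ± 0.918 of the summed FPKM of the 3 ligands in the parental line, 23.9% ± 0.969 in MHCC97L-Src and 10.5% ± 0.343 in MHCC97L-Oxa (SD, n = 3 each). The sum itself averaged 3.81, 5.98 and 7.71 FPKM in the same order. The ratio of DLL4 to JAG1 was 0.126, 0.11 and 0.309 in the MHCC97L libraries, 0.599, 0.827 and 0.541 in those of MHCC97L-Src, and 0.168, 0.19 and 0.197 in those of MHCC97L-Oxa. The MHCC97L-Src ratios stood above all others, and the MHCC97L-Oxa ratios lay within the range of MHCC97L. These shares and ratios were formed after the values had been seen and carry no test.

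**Figure D2:**
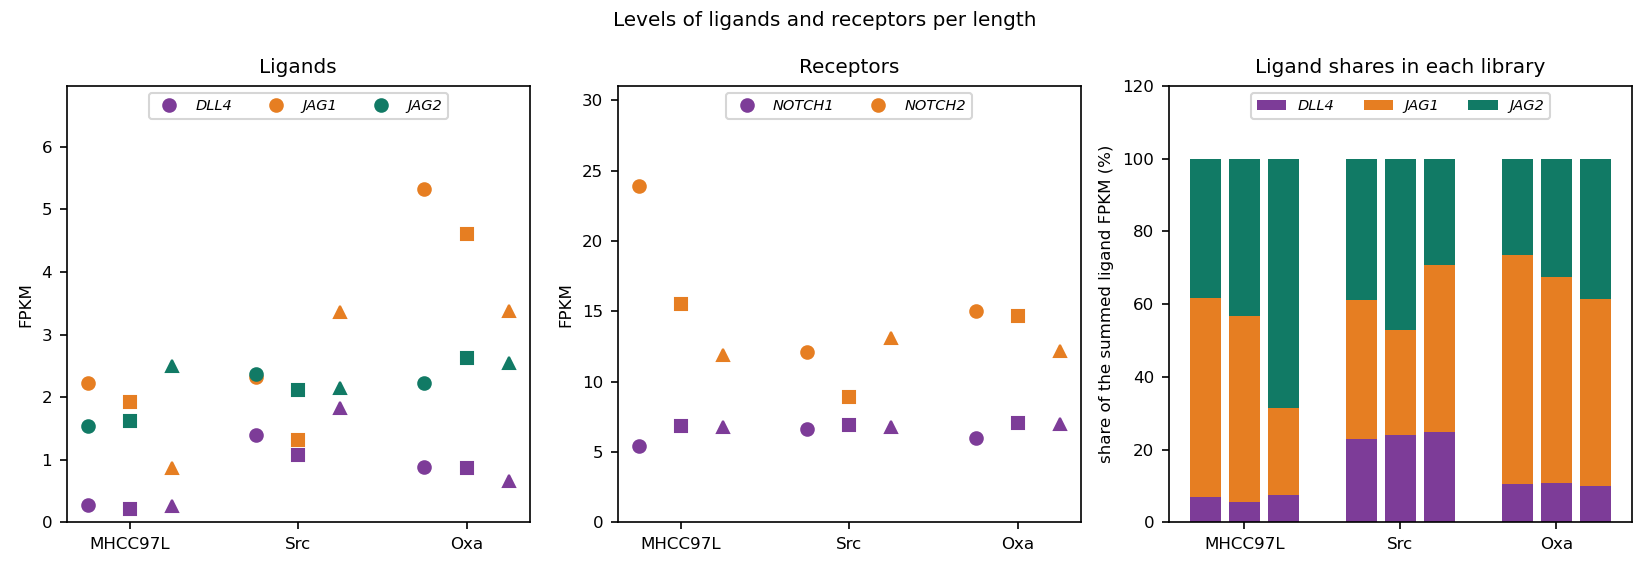
FPKM of the 3 ligands (left) and of NOTCH1 and NOTCH2 (middle) in each library, and the share of each ligand in the summed ligand FPKM of that library (right, percent). Symbols mark replicates 1, 2 and 3, bars stand for single libraries, and the DLL4 share is 23.9% on average in MHCC97L-Src against 6.67% in MHCC97L.

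Among the receptors no difference passed the test in any comparison. NOTCH1, on the minus strand at chr9:136494433-136545786 (GRCh38, GENCODE), had 51.6, 75.9 and 75.3 CPM in the libraries of the parental line, 75.4, 85.1 and 73.4 CPM in those of MHCC97L-Src and 68.4, 75.3 and 73.2 CPM in those of MHCC97L-Oxa. The low value belonged to MHCC97L replicate 1, and the remaining 8 libraries lay between 68.4 and 85.1 CPM. Its edgeR log2 fold changes were 0.21 (SE 0.25, adjusted p = 0.589) in MHCC97L-Src and 0.10 (SE 0.23, adjusted p = 0.801) in MHCC97L-Oxa, and with GC and length offsets they were -0.09 and -0.07. Without MHCC97L replicate 1 they were 0.08 and 0.03.

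NOTCH2, on the minus strand at chr1:119911553-120069626 (GRCh38, GENCODE), was the most abundant receptor. It had 332.0, 239.0 and 180.0 CPM in the libraries of the parental line, 190.0, 151.0 and 193.0 CPM in those of MHCC97L-Src and 231.0, 216.0 and 187.0 CPM in those of MHCC97L-Oxa. MHCC97L replicate 1 was the highest of the 9 libraries, and the lines overlapped. The edgeR log2 fold changes were -0.49 (SE 0.27, adjusted p = 0.245) and -0.24 (SE 0.25, adjusted p = 0.55), with GC and length offsets they were -0.19 and -0.01, and without MHCC97L replicate 1 they were -0.20 and 0.11. The ratio of NOTCH2 to NOTCH1 FPKM was 4.43, 2.26 and 1.75 in the parental libraries, 1.82, 1.29 and 1.93 in the saracatinib-resistant and 2.5, 2.07 and 1.76 in the oxaliplatin-resistant ones, with replicate 1 of MHCC97L apart from the others. The ratio takes no account of GC content, which was 49.4% for NOTCH2 and 62.9% for NOTCH1. The near-identical NOTCH2NL genes can take reads from NOTCH2 or give reads to it, and the NOTCH2NL row held 91 to 142 counts in the parental line, 118 to 131 in MHCC97L-Src and 104 to 261 in MHCC97L-Oxa against 2310 to 6445 for NOTCH2.

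NOTCH3, on the minus strand at chr19:15159038-15200981 (GRCh38, GENCODE), was close to undetectable. The parental libraries held 1, 5 and 4 counts, the MHCC97L-Src libraries 1, 1 and 1, and the MHCC97L-Oxa libraries 0, 1 and 3. It did not pass the filter on low counts, and no fold change is given because most libraries were at or under 3 counts.

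LFNG lies on the plus strand at chr7:2512529-2529177 (GRCh38, GENCODE). It encodes Lunatic fringe, which adds N-acetylglucosamine to O-fucose on Notch receptors and so shifts their response from Jagged toward Delta-like ligands. It had 13.2, 21.7 and 21.7 CPM in the libraries of the parental line, 15.9, 18.6 and 9.65 CPM in those of MHCC97L-Src and 23.2, 18.5 and 17.9 CPM in those of MHCC97L-Oxa. The lines overlapped. The edgeR log2 fold changes were -0.36 (SE 0.41, adjusted p = 0.563) in MHCC97L-Src and 0.07 (SE 0.33, adjusted p = 0.899) in MHCC97L-Oxa, and with GC and length offsets they were -0.72 (adjusted p = 0.0756) and -0.15 (adjusted p = 0.537). Without MHCC97L replicate 1 they were -0.53 and -0.04.

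Among the target genes, HES1 was low in level. HES1 encodes a basic helix-loop-helix repressor that is a direct target of the RBPJ complex and also represses itself, and it lies on the plus strand at chr3:194136145-194138732 (GRCh38, GENCODE). It had 20, 19 and 20 counts in the libraries of the parental line, 52, 58 and 64 counts in those of MHCC97L-Src and 44, 33 and 44 counts in those of MHCC97L-Oxa. The SD of 0.577 counts in the parental line was under the counting error of 4.43 counts, so it does not measure how tight HES1 is. The 3 lines did not overlap on the scale of normalised counts, in the same order as for DLL4. The edgeR log2 fold change was 1.67 (SE 0.41, adjusted p = 0.082), or 3.17-fold, in MHCC97L-Src, and 1.04 (SE 0.38, adjusted p = 0.201) in MHCC97L-Oxa. Neither passed the threshold, and with GC and length offsets the first did (1.70, edgeR adjusted p = 0.0141) and the second did not (1.01, edgeR adjusted p = 0.0602). Without MHCC97L replicate 1 the values were 1.67 and 1.09 (edgeR adjusted p = 0.0661 and 0.078).

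The upstream 250 bases of HES1 (chr3:194135898-194136147, plus strand, RefSeq GRCh38.p14) are shown as the promoter, among the 9 members read, with RBPJ core letters close together. In the sequence the capitals mark TGGGAA, which starts 84 and 70 bases before the RefSeq start, and 2.92% of the 27305 windows hold 2 or more matches. The window also holds 3 matches to CACNAG, the N-box bound by HES proteins, and 4 to CACGNG, of which 2 share their position with an N-box. At least 1 N-box was found in 32.0% of windows.

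HES1: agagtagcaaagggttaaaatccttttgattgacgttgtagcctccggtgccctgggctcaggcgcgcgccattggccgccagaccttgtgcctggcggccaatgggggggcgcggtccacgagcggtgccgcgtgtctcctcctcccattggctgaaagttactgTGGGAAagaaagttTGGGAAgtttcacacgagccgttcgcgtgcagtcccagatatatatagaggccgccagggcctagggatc

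HEY1 encodes a repressor of the same protein family and is likewise a direct Notch target. It had 39.3, 40.9 and 22.8 CPM in the libraries of the parental line, 66.4, 61.3 and 77.5 CPM in those of MHCC97L-Src and 81.4, 56.5 and 61.0 CPM in those of MHCC97L-Oxa. Both resistant lines lay above MHCC97L in every library and overlapped each other. The edgeR log2 fold changes were 0.99 (SE 0.30, adjusted p = 0.108) in MHCC97L-Src and 0.95 (SE 0.30, adjusted p = 0.18) in MHCC97L-Oxa. With GC and length offsets both passed the threshold, at 1.36 (edgeR adjusted p = 0.0103) and 1.18 (edgeR adjusted p = 0.0159). Without MHCC97L replicate 1 the changes were 1.14 and 1.15, of which the second passed (edgeR adjusted p = 0.0507 and 0.0375).

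NRARP encodes an ankyrin repeat protein that is induced by Notch and dampens it by binding the receptor's intracellular part, and it lies on the minus strand at chr9:137300482-137302251 (GRCh38, GENCODE). It had 8.76, 13.5 and 15.2 CPM in the libraries of the parental line, 28.5, 31.1 and 25.8 CPM in those of MHCC97L-Src and 16.2, 16.7 and 17.9 CPM in those of MHCC97L-Oxa. The lines did not overlap, though MHCC97L replicate 3 and the lowest MHCC97L-Oxa library were close. By edgeR, NRARP in MHCC97L-Src had a log2 fold change of 1.19 (SE 0.35, adjusted p = 0.104), or 2.28-fold, and it passed the threshold with GC and length offsets (0.66, adjusted p = 0.0383) and without MHCC97L replicate 1 (1.03, adjusted p = 0.0435). The value with offsets was smaller by more than 0.5 on the log2 scale. In MHCC97L-Oxa it was 0.44 (SE 0.34, edgeR adjusted p = 0.412), 0.02 with offsets (edgeR adjusted p = 0.948) and 0.34 without MHCC97L replicate 1 (edgeR adjusted p = 0.213). Of 6 fits per comparison that each left out 1 library, 2 passed in MHCC97L-Src and 0 in MHCC97L-Oxa. In MHCC97L-Src the edgeR adjusted p reached 0.282.

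Comparison of the resistant lines with each other, which leaves out the MHCC97L libraries, gave 1 of 9 genes at the adjusted threshold, against 4.64% of 11994 tested genes, 2.12% of them with higher values in MHCC97L-Src. NRARP was higher in MHCC97L-Src than in MHCC97L-Oxa by 0.74 (SE 0.15) on the log2 scale, or 1.67-fold (edgeR adjusted p = 0.0239), and by 0.63 with GC and length offsets (edgeR adjusted p = 0.00857). This call was lost without MHCC97L-Src replicate 1 (edgeR adjusted p = 0.135), without MHCC97L-Oxa replicate 1, 2 or 3 (0.115, 0.156 and 0.0982) and in the fit of all 9 libraries together (0.75, edgeR adjusted p = 0.48). It was also lost with a term for replicate number, without and with offsets (edgeR adjusted p = 0.0739 and 0.0508). DLL4, HES1 and NRARP were higher and JAG1 lower in MHCC97L-Src without overlap, against 13.9% and 12.7% of all tested genes. HES1 differed by 0.63 (SE 0.27, edgeR adjusted p = 0.233), HEY1 by 0.05 (SE 0.16, edgeR adjusted p = 0.912) and LFNG by -0.44 (SE 0.24, edgeR adjusted p = 0.334). None of the 9 differed by more than 1 on the log2 scale with an unadjusted p under 0.05, which 4.01% of all tested genes did, and 2 of 9 (NRARP and JAG1) passed the adjusted threshold with offsets against 9.95%. For a single gene, the exact two-sided permutation test of 3 against 3 libraries cannot go below p = 0.1.

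The upstream 250 bases of NRARP (chr9:137302272-137302521, minus strand, RefSeq GRCh38.p14) are shown because NRARP was the member that differed between the resistant lines. They hold no TGGGAA and no CACNAG on either strand, and 1 CACGNG. The window is 78.4% G and C, against a median of 58.0% over all windows.

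NRARP: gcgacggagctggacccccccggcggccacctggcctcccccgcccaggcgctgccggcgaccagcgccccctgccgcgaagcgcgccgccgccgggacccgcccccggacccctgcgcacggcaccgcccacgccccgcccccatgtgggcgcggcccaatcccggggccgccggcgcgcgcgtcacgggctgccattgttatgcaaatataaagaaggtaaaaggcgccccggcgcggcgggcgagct

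**Figure D3:**
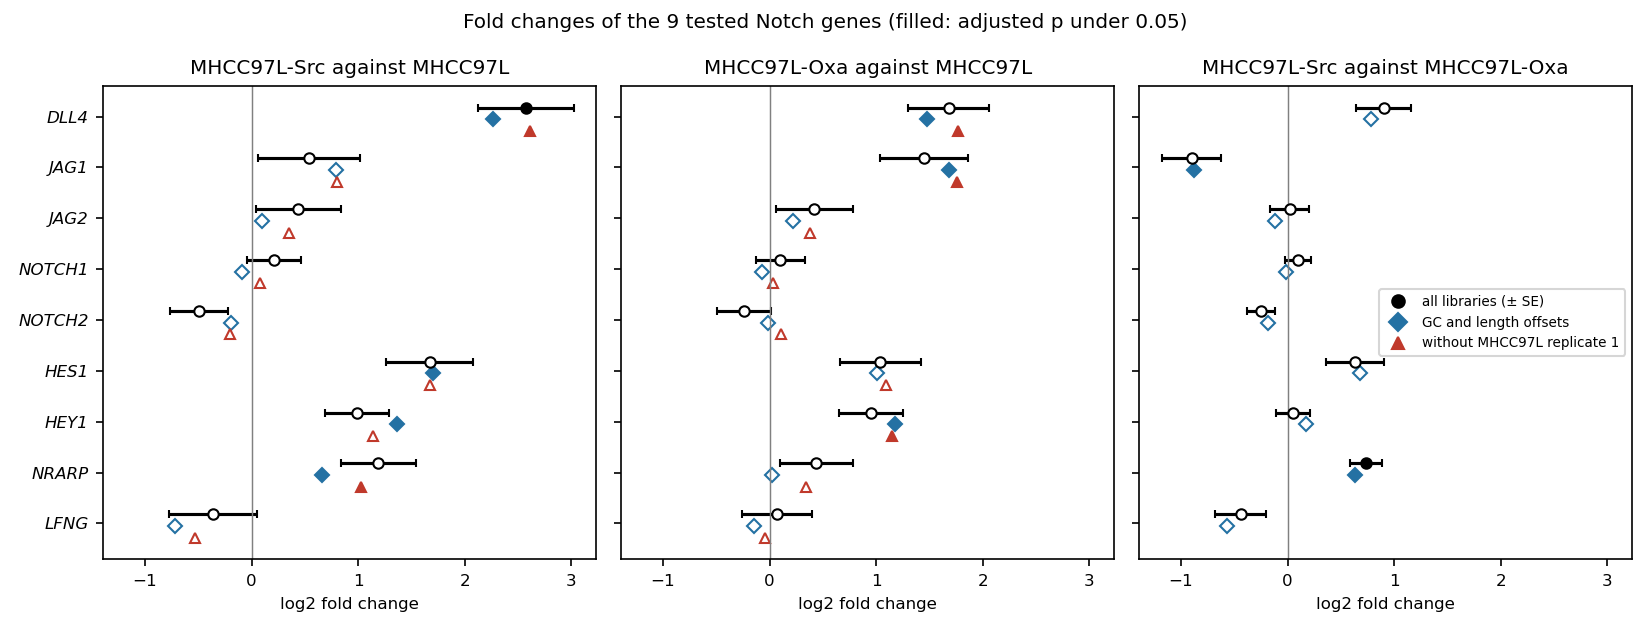
Log2 fold changes (x axis) of the 9 tested Notch genes in the 3 comparisons, from edgeR with all libraries (circles, bars ± SE), with GC and length offsets (diamonds) and without MHCC97L replicate 1 (triangles, first and second panels). Filled symbols have an adjusted p under 0.05: DLL4 in MHCC97L-Src is filled under each of the 3 fits, and HES1, HEY1 and NRARP are filled with offsets in that panel.

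The Notch genes were chosen with earlier results of these data known. Their medians and shares, here and above, are therefore a description and no test of the set. Over the 9 tested genes the median log2 fold change was 0.54 in MHCC97L-Src and 0.44 in MHCC97L-Oxa, against -0.16 and -0.19 over all tested genes. GC and length offsets moved the medians of all genes to -0.05 and -0.07, and those of the 9 genes to 0.66 and 0.22. With offsets 4 of 9 genes passed the adjusted threshold in MHCC97L-Src (DLL4, HES1, HEY1 and NRARP) and 3 of 9 in MHCC97L-Oxa (DLL4, JAG1 and HEY1), all of them higher, where 11.3% and 13.4% of all tested genes passed. Without MHCC97L replicate 1, 2 of 9 passed in MHCC97L-Src (DLL4 and NRARP) and 3 of 9 in MHCC97L-Oxa (DLL4, JAG1 and HEY1), against 5.52% and 18.5% of all tested genes. Where the p before adjustment was under 0.05 and the log2 fold change beyond 1 in size, the genes were DLL4, HES1 and NRARP in MHCC97L-Src and DLL4, JAG1 and HES1 in MHCC97L-Oxa, all higher, against 24.6% (5.74% higher) and 16.2% (4.63% higher) of all tested genes.

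The 70 other genes of the pathway were counted from a list grouped by role, of which 60, 59 and 60 were tested in the 3 comparisons. In MHCC97L-Src and in MHCC97L-Oxa against MHCC97L, 0 of them passed the adjusted threshold in edgeR, with 23 and 13 at an unadjusted p under 0.05 (29.5% and 22.4% of all tested genes) and 12 and 6 at the adjusted threshold of DESeq2 (17.6% and 7.42%). Their median log2 fold changes were -0.15 and -0.12. The 40 genes other than the members that the deposited KEGG annotation assigns to Notch signaling gave 0 of 33 tested in both comparisons, with 11 and 4 at an unadjusted p under 0.05.

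Among the ligands and their regulators, DLK2, a Delta-like homolog, had 68, 106 and 107 counts in the libraries of the parental line, 170, 226 and 177 in those of MHCC97L-Src and 209, 186 and 213 in those of MHCC97L-Oxa. Both resistant lines lay above MHCC97L, with log2 fold changes of 1.14 and 1.10 (edgeR adjusted p = 0.135 and 0.196). NEURL1, a ubiquitin ligase that acts on Notch ligands, had 0, 5 and 0 counts in the libraries of the parental line, 20, 13 and 12 in those of MHCC97L-Src and 1, 3 and 2 in those of MHCC97L-Oxa. Its log2 difference between the resistant lines was 2.94 (SE 0.57, edgeR adjusted p = 0.0174), fitted against libraries at or under 3 counts and so no bound on the fold. MIB1, the main ubiquitin ligase for ligand endocytosis, had log2 fold changes of -2.74 and -2.10 (edgeR adjusted p = 0.102 and 0.201), and -1.02 and -0.76 with GC and length offsets. NEURL1B, the ligase with the highest mean level at 18.6 FPKM, had log2 fold changes of 0.56 and 0.78 (edgeR adjusted p = 0.166 and 0.158).

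Of the receptor-processing genes, the proteases ADAM10 and ADAM17 had log2 fold changes of -1.65 and -1.83 in MHCC97L-Src (edgeR adjusted p = 0.124 and 0.143). The glucoside xylosyltransferase GXYLT1 had -1.88 (edgeR adjusted p = 0.139). With GC and length offsets the 3 values were -0.12, -0.39 and -0.61. APH1A, a gamma-secretase subunit and the cleavage gene with the highest mean level (72.1 FPKM), had 0.72 in MHCC97L-Src (edgeR adjusted p = 0.157), and POFUT1, the O-fucosyltransferase of Notch receptors (44.2 FPKM), had 0.12 (edgeR adjusted p = 0.748). ITCH, a ubiquitin ligase of Notch turnover, had -1.89 (edgeR adjusted p = 0.124), while DTX4, the turnover gene with the highest mean level (10.5 FPKM), had -0.05 (edgeR adjusted p = 0.899). NOTCH4, the remaining receptor, had 1 to 13 counts and was not tested. POGLUT1, an O-glucosyltransferase of the receptors, had a log2 fold change of -1.46 in MHCC97L-Oxa (edgeR adjusted p = 0.209) and -0.44 with offsets.

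In the nuclear complex, RBPJ, the DNA-binding partner of Notch, had a fitted change of -2.10 on the log2 scale in MHCC97L-Src (SE 0.77, edgeR adjusted p = 0.13), and -0.38 with GC and length offsets. The coactivators and corepressors MAML2, SNW1, CIR1 and HDAC2 had values of -1.45, -1.82, -2.03 and -2.02 (edgeR adjusted p = 0.151, 0.131, 0.115 and 0.116), and -0.46, -0.89, -0.69 and -0.36 with offsets. All 11 pathway genes lower at the unadjusted threshold in MHCC97L-Src had a GC content of 37.7% to 44.9%, with a median of 41.0% against 50.2% over all tested genes. The correlation of relative gene levels with GC content was negative in MHCC97L replicates 1 and 3 (Spearman's rho = -0.786 and -0.256 across genes) and positive in the other 7 libraries, most in MHCC97L-Src replicates 1 and 2 (0.545 and 0.703).

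Of the Groucho family corepressors, TLE1 was lower and TLE3 higher in MHCC97L-Src than in MHCC97L-Oxa. TLE1 had 748, 675 and 842 counts in MHCC97L-Src against 1152, 1215 and 1204 in MHCC97L-Oxa, a log2 difference of -0.55 (SE 0.12, edgeR adjusted p = 0.0291). TLE3 had 5044, 4466 and 5156 counts against 3867, 3961 and 3792, a log2 difference of 0.44 (SE 0.10, edgeR adjusted p = 0.0284). With NEURL1 these were the 3 of 60 tested pathway genes that passed in that comparison, 2 higher and 1 lower in MHCC97L-Src, against 4.64% of all tested genes. Each of the 3 calls was lost without MHCC97L-Src replicate 1 and without any 1 of the MHCC97L-Oxa libraries, at edgeR adjusted p values of 0.0734 to 0.229, and in the fit of all 9 libraries (0.292 to 0.542). TLE2, the nuclear gene with the highest mean level (59.5 FPKM), had log2 fold changes of 0.68 in MHCC97L-Src and 1.10 in MHCC97L-Oxa (edgeR adjusted p = 0.149 and 0.0893), and the second passed with GC and length offsets (0.86, edgeR adjusted p = 0.00314).

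Of the other target genes, SOX9, a transcription factor of bile duct cells and a known Notch target in liver, had 38, 57 and 46 counts in the libraries of the parental line, 101, 99 and 116 in those of MHCC97L-Src and 148, 145 and 123 in those of MHCC97L-Oxa. Both resistant lines lay above MHCC97L. The log2 fold changes were 1.26 and 1.55 (edgeR adjusted p = 0.116 and 0.12), and both passed with GC and length offsets, at 1.33 and 1.61 (edgeR adjusted p = 0.032 and 0.0125). HES6 had 1.19 in MHCC97L-Oxa (edgeR adjusted p = 0.213). HES7, the most abundant of the other HES and HEY genes at 18.1 FPKM, had 0.87 and 0.57 (edgeR adjusted p = 0.111 and 0.219), and MYC, the most abundant of the remaining targets, had 0.71 and 0.45 (edgeR adjusted p = 0.112 and 0.228).

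**Figure D4:**
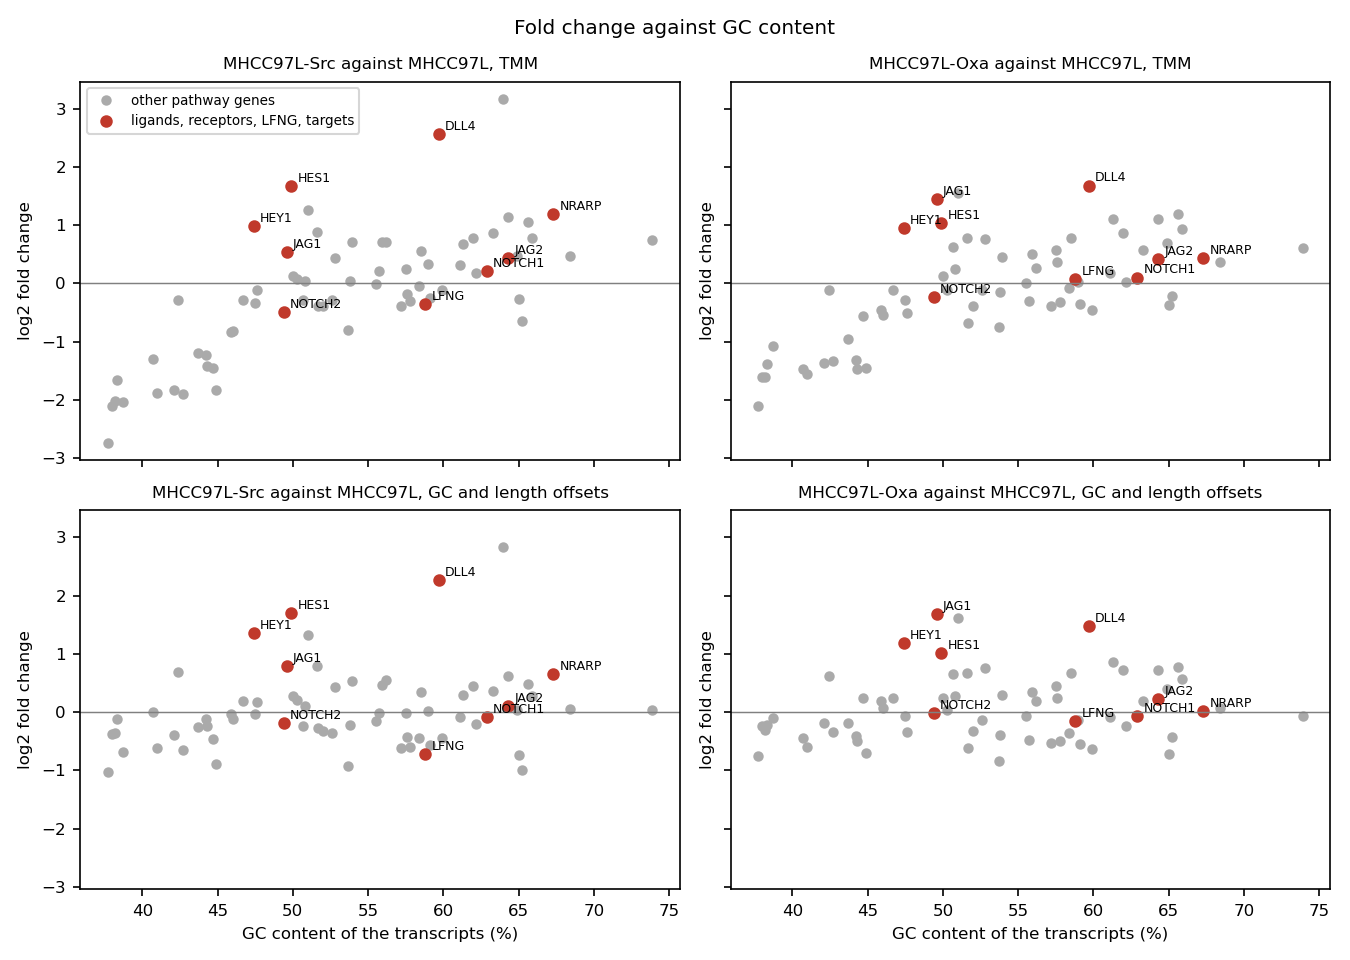
Log2 fold change (y axis) against GC content of the transcripts (x axis, percent) for the tested Notch genes (red, named) and the other pathway genes (grey), in MHCC97L-Src (left) and MHCC97L-Oxa (right) against MHCC97L, with TMM scaling (top) and with GC and length offsets (bottom). With TMM scaling the pathway genes under 45% GC lie mostly below 0, and with offsets they lie nearer 0, while DLL4, HES1 and HEY1 stay above 0 in all 4 panels.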

How the data were processed

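RNA of MHCC97L, MHCC97L-Src and MHCC97L-Oxa was sequenced from both ends in stranded, poly(A)-selected libraries. The submitters' processing notes name Trimmomatic 0.36, HISAT2 2.2.1.0 and the genome build GRCh38.p12; the counting program and its strand setting are not given in the sources used here. The authors deposited raw read counts per gene and FPKM values, which scale fragments by transcript length and sequencing depth, for 20030 genes in 9 libraries. Libraries were grouped by the treatment in their labels; the titles of the MHCC97L-Oxa libraries carry the code P_AC, which the labels do not explain, so that group rests on its treatment label, oxaliplatin.

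Counts of the 6 libraries of a comparison were filtered with filterByExpr (minimum count 10), scaled by TMM and tested with edgeR 4.0.16 (quasi-likelihood test) in R 4.3.3, with Benjamini-Hochberg adjustment over all tested genes and a threshold of 0.05. The SE was taken as the size of the log2 fold change over the square root of F. CPM are TMM-normalised. Levels of different genes were compared in FPKM only. Alternatives were DESeq2 1.42.0, its size factors in edgeR, other filters, a fit of all 9 libraries, a replicate term, offsets from splines on GC content and length (GENCODE 29), limma 3.58.1 on log2(FPKM + 1) and log2(FPKM + 0.1), and each library left out. A looser threshold, p under 0.05 before adjustment and a log2 fold change beyond 1 in size, was added later as an alternative. The fits were tested on simulated counts. Upstream sequences are RefSeq's (GRCh38.p14), read for 9 of the 10 members, of which 3 are shown.

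The members and lists were chosen with earlier results of these data known. Named were all members, the other pathway genes passing either threshold in a comparison, and the gene of highest mean FPKM in each role group, apart from items not reported here.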

Additional observations from a re-analysis of the deposited data

Results flagged for a closer look

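The change against MHCC97L differed between the resistant lines, by the edgeR test of MHCC97L-Src against MHCC97L-Oxa, for 1 of the 9 tested Notch genes. It also differed for 3 of the 60 tested other pathway genes. Over all 11994 tested genes, 4.64% passed, a share close to that of the 3 of 60. NRARP was 0.74 higher on the log2 scale in MHCC97L-Src (higher in 3 of 3 libraries). NEURL1 was 2.94 higher, on at most 20 counts a library. TLE1 had a log2 difference of -0.55 and TLE3 of 0.44, with 3 of 3 libraries on the same side in each case. With GC and length offsets the 4 values were 0.63, 2.80, -0.67 and 0.37 (edgeR adjusted p = 0.00857, 0.0142, 0.00402 and 0.0234). All 4 calls were lost in the fit of all 9 libraries. They were also lost without MHCC97L-Src replicate 1 and without any 1 of the MHCC97L-Oxa libraries. With a term for replicate number, NRARP, TLE1 and TLE3 were lost (edgeR adjusted p = 0.0739, 0.0966 and 0.113). In each limma fit NEURL1, TLE1 and TLE3 were lost.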

How the results depend on the processing

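Counts of genes past the adjusted threshold moved more than the fold changes. They are given below for all genes, the Notch genes and the other pathway genes, in that order, with values only where they moved by over 1.5 times. For MHCC97L-Src against MHCC97L (256, 1 and 0) they were 2114, 4 and 12 with DESeq2, 1956, 4 and 10 in the fit of all 9 libraries, 1359, 4 and 8 with GC and length offsets, 702 and 1 (all and other genes) with no filter, 162 (all genes) with at least 10 counts in every library, and 2966, 3 and 14 at the unadjusted threshold, which was chosen after seeing the data. For MHCC97L-Oxa against MHCC97L (115, 0 and 0) they were 895, 3 and 6 with DESeq2, 495, 1 and 3 with 9 libraries, 1616, 3 and 9 with offsets, 252 and 2 (all and other genes) with limma on log2(FPKM + 1), 256 and 1 on log2(FPKM + 0.1), 242, 1 and 1 on log2(FPKM + 1) with no filter, and 1951, 3 and 8 at the unadjusted threshold. For MHCC97L-Src against MHCC97L-Oxa (556, 1 and 3) they were 839 and 3 (all and Notch genes) with DESeq2, 86, 0 and 0 with 9 libraries, 1193, 2 and 7 with offsets, and 0 and 1 (Notch and other genes) at the unadjusted threshold. With offsets 726 of 1359 calls in MHCC97L-Src were higher, against 172 of 256 without.

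Leaving out 1 library gave 22 to 3419, 0 to 4 and 0 to 19 genes in the first comparison, 2 to 2705, 0 to 3 and 0 to 15 in the second, and 167 to 1617, 0 to 2 and 0 to 6 in the third. In the first comparison 2 and 4 Notch genes were called without MHCC97L replicate 1 and 2, where 672 and 3419 of all genes were called. In the second, without the same libraries, it was 3 and 3 Notch genes beside 2251 and 2705 of all genes. In the third, without MHCC97L-Src replicate 2 and 3, it was 2 and 2 beside 1033 and 1617. Without any other library 0 Notch genes were called.

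The replicate numbers did not pair the libraries: deviations of same-numbered libraries correlated at -0.631 to 0.211, -0.208 to 0.417 and -0.271 to 0.0286 in the 3 comparisons. A replicate block gave 988 and 3 (all and other genes) in the first comparison, within 1.5 times of the counts without it in the second, and 0 and 1 (Notch and other genes) in the third, where NRARP had an edgeR adjusted p of 0.0739. With offsets and the block together the values were 705, 1 and 5 in the second comparison and 0 Notch genes in the third (NRARP at 0.0508). In the first comparison they left DLL4 at 2.24 (edgeR adjusted p = 0.05) outside the threshold and HEY1 at 1.38 (0.0328) as the 1 Notch gene inside it.

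Of 459 repeats of the 27 Notch gene fold changes, 388 kept their direction and side of the threshold, 34 newly passed it, 12 no longer did and 25 turned in direction, all of them in differences that had not passed. With offsets, without and with the block, these were NOTCH1 at -0.09 and -0.09 in MHCC97L-Src, NOTCH1 at -0.07 and -0.07 and LFNG at -0.15 and -0.16 in MHCC97L-Oxa, and JAG2 at -0.12 and -0.12 and NOTCH1 at -0.01 and -0.02 between the resistant lines. NOTCH2 in MHCC97L-Oxa was 0.00 with offsets and block. Between the resistant lines, limma gave JAG2 at -0.11, -0.15 and -0.11 and HEY1 at -0.04, -0.05 and -0.04. Without 1 library, NOTCH2 ran from -0.43 to 0.11 and LFNG from -0.05 to 0.26 in MHCC97L-Oxa, and JAG2 from -0.06 to 0.08 and HEY1 from -0.06 to 0.21 between the resistant lines. The cause was not tested. Of 423 repeats for the other named pathway genes, 0 turned in direction. Counts of at most 20 a library limit DLL4 and HES1 in MHCC97L, NEURL1 and NOTCH3.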
